A study of Mus musculus with 20 samples.

Results

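The Notch pathway was examined through 10 genes in bulk RNA-seq of isolated cardiac cells of the mouse. They were 4 ligands (*Dll1*, *Dll4*, *Jag1* and *Jag2*), 4 receptors (*Notch1* to *Notch4*) and 2 transcriptional targets (*Hes1* and *Hey1*). The genes were taken by symbol, and all 10 were present among the 13931 genes of the endothelial cell (EC) table, the 13565 of the fibroblast (FB) table and the 13040 of the cardiomyocyte (CM) table. Each gene had 1 transcript in each table, and it was the same gene model in all of them.

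The question of the comparison was how the loss of the lncRNAs *Gadlor1* and *Gadlor2* alters cardiac cells under pressure overload. All mice, WT and *Gadlor*-KO, had undergone transverse aortic constriction (TAC) 2 weeks before, so that no unoperated reference enters here. *Gadlor*-KO mice carried a homozygous CRISPR-Cas9 deletion on chromosome 16 in all cells of the body, and the line went back to 1 embryonic stem cell clone, injected into C57BL/6 blastocysts. The mice were 8 to 10 weeks old at the time of TAC. ECs were bound by magnetic beads against CD146, a surface protein that pericytes and smooth muscle cells also carry, FBs came from the unbound cells with feeder removal beads, and CMs were isolated by enzymatic perfusion of the heart. ECs were represented by 4 samples of each genotype, and FBs and CMs by 3 of each. The methods call the replicates of the experiments biological, and the labels do not name the animal behind a sample, so that the p-values cover the spread among the samples at hand.

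Notch signaling passes between neighboring cells. A ligand of the Delta-like or Jagged family on one cell binds a Notch receptor on the next, whose intracellular part is then cut free, enters the nucleus and, with the DNA-binding protein RBPJ, switches on genes such as *Hes1* and *Hey1*. In vessels, *Dll4* on endothelial tip cells restrains sprouting of their neighbors through *Notch1*, while *Jag1* counteracts *Dll4* and also signals to the *Notch3* of mural cells.

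Marker genes were set against the cell type labels of the samples. Levels are given in log2 CPM (log2 of reads per 1 M, CPM), in which a difference of 1 is a doubling. In ECs, the mean of 12 endothelial markers lay between 8.44 and 8.63 log2 CPM in all 8 samples, above every other list of cell markers. The pericyte and smooth muscle list reached 6.99 to 7.40 there. In FBs, the same endothelial mean was 5.33, 1.14 and 2.81 log2 CPM in samples WT-260, WT-277 and WT-283 and 6.60, 6.46 and 6.02 in KO-240, KO-241 and KO-242, against a fibroblast mean of 8.46 to 9.82. WT-260 thus stood apart from the other WT FB samples. In CMs, the endothelial mean was 3.56, 4.47 and 3.61 log2 CPM in samples WT-CM1, WT-CM2 and WT-CM6 and 5.74, 6.97 and 6.66 in KO-CM1, KO-CM2 and KO-CM3. The mean of 10 cardiomyocyte markers was 11.55, 11.23 and 11.38 log2 CPM in WT and 6.39, 5.76 and 9.04 in the libraries labeled CM *Gadlor*-KO. Library KO-CM2 held more endothelial (6.97) and fibroblast (7.22) than cardiomyocyte signal (5.76), which goes against its label. Library KO-CM1 held more epicardial (7.0, mean of 5 markers) than cardiomyocyte signal (6.39), which also goes against the label. The term KO CMs therefore names these libraries by label only. The epicardial mean was -0.09 to 0.93 log2 CPM in WT CMs and 2.77 and 2.95 in KO-CM2 and KO-CM3, and it was 2.70 to 5.03 in WT and -1.77 to 1.88 in KO FBs. No endothelial, fibroblast, cardiomyocyte or macrophage marker was at the lowest value of the FB or CM table in any sample. Estimated library sizes were 40.1 to 55.4 M reads in ECs, 15.04 to 59.7 in FBs and 10.56 to 20.2 in CMs, with WT-260 and the KO libraries below the other WT FB libraries and the KO below the WT CM libraries. Mitochondrially encoded genes took 3.81% and 5.69% of the CPM in WT-277 and WT-283, 73.6% in WT-260 and 46.3% to 60.9% in KO FBs. They took 26.7% to 46.8% in WT and 65.1% to 75.6% in KO CMs. *Gadlor1* and *Gadlor2* were not analysed here, so the genotype labels were not checked against the deletion.

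In ECs, the ligands *Dll4* and *Jag1* had lower levels in *Gadlor*-KO samples, with differences from WT of -0.71 and -0.88 on the log2 scale. *Dll1* and *Notch2* were lower by a smaller amount, and the remaining receptors, *Jag2* and both targets did not pass the test. A gene was called when its adjusted p in limma (Benjamini-Hochberg over all genes of the table) was under 0.05 and its fold change exceeded 1.5. By this rule 2 of 10 members were lower and 0 were higher, where 5.31% and 2.08% of all EC genes were lower and higher. Without the fold threshold 4 members were lower, against 11.3% of all genes, and these were also the 4 members whose groups did not overlap, all lower, where 12.6% of all genes were separate in this direction and 13.6% in the other. The median difference over the members was -0.22, and that over all genes 0.03.

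The promoters of the 4 genes that were lower in KO ECs are shown because the targets of the pathway are themselves DNA-binding repressors, and their recognition letters can be looked for in front of the ligand and receptor genes. RefSeq sequences (GRCm38.p6, the assembly behind mm10) covered 8 of the 10 members, all but *Hes1* and *Hey1*. The lines give bases upstream of a transcript, 5′ to 3′ on the strand of the gene. For *Dll1* they precede a distal RefSeq start and do not adjoin the measured transcript. Capitals mark CACGCG or its reverse complement CGCGTG, the class C site of HES and HEY proteins.
*Dll4*, chr2:119325534-119325783, plus strand: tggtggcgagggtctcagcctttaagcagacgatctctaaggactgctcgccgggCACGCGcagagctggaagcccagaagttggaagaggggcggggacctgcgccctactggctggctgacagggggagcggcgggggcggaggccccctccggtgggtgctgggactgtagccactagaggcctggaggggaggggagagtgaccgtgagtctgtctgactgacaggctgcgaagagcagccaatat
*Jag1*, chr2:137116645-137116770, minus strand: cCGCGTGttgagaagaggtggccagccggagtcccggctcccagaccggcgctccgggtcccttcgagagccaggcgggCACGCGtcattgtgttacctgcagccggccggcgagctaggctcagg
*Dll1*, chr17:15376933-15377182, minus strand: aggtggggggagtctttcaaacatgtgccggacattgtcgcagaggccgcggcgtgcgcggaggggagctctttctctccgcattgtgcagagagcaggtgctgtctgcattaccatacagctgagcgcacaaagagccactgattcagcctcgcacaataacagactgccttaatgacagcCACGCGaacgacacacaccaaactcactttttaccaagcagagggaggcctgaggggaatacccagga
*Notch2*, chr3:98013288-98013526, plus strand: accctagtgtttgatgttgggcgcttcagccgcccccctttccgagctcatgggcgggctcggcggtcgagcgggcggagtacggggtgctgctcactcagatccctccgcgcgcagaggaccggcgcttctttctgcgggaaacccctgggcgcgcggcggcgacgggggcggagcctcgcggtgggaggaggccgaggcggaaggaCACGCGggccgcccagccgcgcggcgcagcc

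The CACGCG letters, searched on both strands in the 250 bases before each RefSeq start, were found in 4 of the 8 members with a sequence and in 7.62% of 32851 windows of the genome. They began 195 bases before the RefSeq start of *Dll4*, 249 and 171 bases before that of *Jag1* and 42 bases before that of *Notch2*. In *Dll1* they began 68 bases before a distal start, which lies upstream of the measured transcript. The RefSeq start of *Jag1* (137116520) lies inside its measured transcript. The printed lines of *Jag1* and *Notch2* stop short of the RefSeq start, where an annotated exon begins. The 4 genes shown had been chosen by their EC values. They were the 4 with a match only if the distal window of *Dll1* is counted, and this overlap was not tested. The share of 7.62% is per window and not matched for base composition, while the 8 members had 9 windows. The *Dll1* window at the start of its measured transcript had no match. *Notch1*, *Notch3*, *Notch4* and *Jag2* had none. The *Jag2* window lies inside its measured transcript, so that the bases upstream of that transcript were not searched. The RBPJ letters GTGGGAA (5.42% of windows) and the ETS letters CCGGAAG (6.91%) were in none of the members' windows, and the AP-1 letters TGANTCA (6.75%) were in the distal window of *Dll1* only. No letters of one motif overlapped those of another. A match describes the sequence and shows no binding.

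Among the ligands, *Dll4* had the most uniform difference in ECs. It is transcribed from chromosome 2, 119325784 to 119335962 on the plus strand, as a transcript of 3747 bp in 11 exons (GENCODE vM21, build mm10). It measured 7.17, 7.01, 7.02 and 7.10 log2 CPM in samples WT-31, WT-32, WT-34 and WT-35 and 6.47, 6.34, 6.39 and 6.27 in KO-105, KO-108, KO-131 and KO-133. Every KO sample lay below every WT sample, with means of 7.08 ± 0.075 and 6.37 ± 0.083 log2 CPM (SD, n = 4 each). The difference of -0.71 (SE 0.065) had an adjusted p of 6.81e-05 in limma.

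*Jag1*, on the minus strand of chromosome 2 from 137081456 to 137116644, encodes the other ligand that was called. Its levels were 6.22, 6.16, 6.16 and 6.06 log2 CPM in WT and 4.74, 5.35, 5.54 and 5.43 in KO samples, again without overlap. KO-105 was the lowest and spread the KO group to an SD of 0.36, against 0.069 in WT. The difference was -0.88 (SE 0.15, adjusted p = 0.0046 in limma), and leaving out single samples moved it between -0.98 and -0.71.

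*Dll1*, a ligand best known from the development of somites and neurons, is transcribed from chromosome 17 (15367354 to 15375976, minus strand). It measured 5.21, 4.90, 4.85 and 5.16 log2 CPM in WT and 4.65, 4.42, 4.52 and 4.42 in KO ECs. The groups were separate, and the difference of -0.53 (SE 0.093, adjusted p = 0.00348 in limma) was below the fold threshold. Without WT-34 it came to -0.59 and passed that threshold too. *Jag2*, the other Jagged ligand, was at 7.30 ± 0.067 log2 CPM in WT and 7.38 ± 0.082 in KO samples (SD, n = 4 each), with an adjusted p of 0.443 in limma.

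Of the receptors, *Notch2* alone passed the adjusted p in ECs. Its WT values were 4.43, 4.47, 4.40 and 4.41 log2 CPM and its KO values 3.97, 4.34, 3.97 and 3.76. All KO samples were below WT, with KO-108 close to the lowest WT sample, and the difference was -0.42 (SE 0.11, adjusted p = 0.0197 in limma), below the fold threshold. *Notch1*, the receptor of the endothelium that answers *Dll4*, was at 8.91 ± 0.099 in WT and 8.71 ± 0.13 log2 CPM in KO samples (SD, n = 4 each), and its adjusted p was 0.114 in limma. *Notch3*, the receptor of mural cells, differed by -0.17 (SE 0.081) with an adjusted p of 0.165. *Notch4*, which is largely restricted to endothelium, measured between 8.46 and 8.70 log2 CPM in all 8 samples, with a difference of 0.03 (SE 0.073, adjusted p = 0.771 in limma).

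The targets overlapped between genotypes in ECs. *Hey1* was at 5.27, 5.58, 5.89 and 5.59 log2 CPM in WT and 5.58, 5.52, 5.64 and 5.69 in KO samples. *Hes1* was at 6.14, 6.0, 5.99 and 6.12 log2 CPM in WT and 6.14, 6.29, 5.59 and 5.30 in KO samples. The KO samples of *Hes1* fell into a high pair (KO-105 and KO-108) and a low pair (KO-131 and KO-133) on either side of WT. The differences were 0.03 (SE 0.11, adjusted p = 0.893) for *Hey1* and -0.23 (SE 0.20, adjusted p = 0.448) for *Hes1* in limma.

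**Figure D1:**
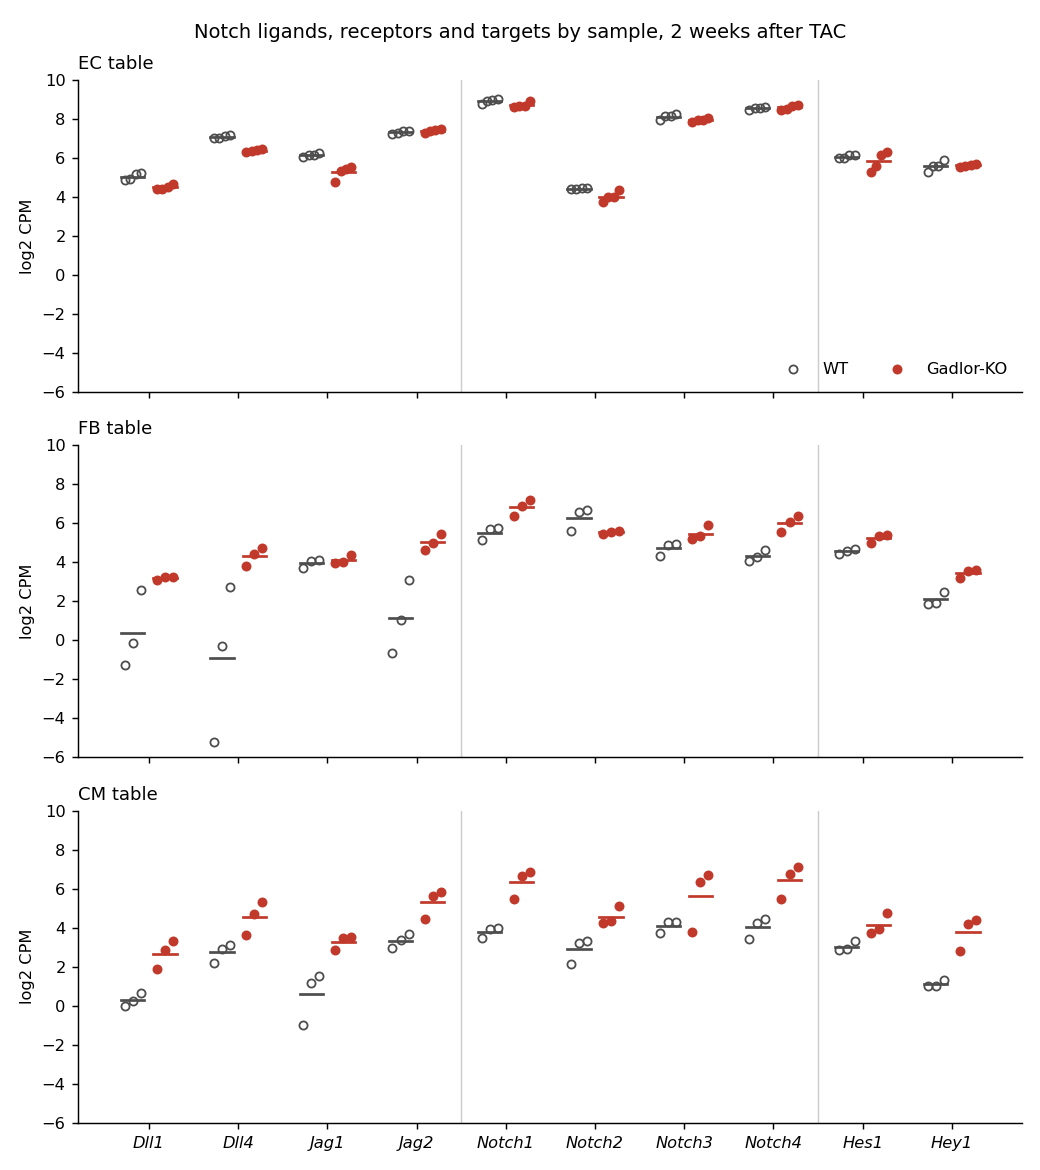
Level of each of the 10 genes in log2 CPM (vertical axis) in every sample of the EC, FB and CM tables, 1 panel per table. Open points are WT samples, filled points *Gadlor*-KO samples and bars group means, with ligands left, receptors in the middle and targets right. *Dll4* and *Jag1* show separate groups in ECs with KO below WT, and 9 of 10 genes show separate groups in CMs with KO above WT.

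The EC samples held males and females of both genotypes, 2 of each, as read from the mean of 4 Y-linked genes (3.41 to 3.56 log2 CPM in males, -5.02 to -4.03 in females). The pairs of *Hes1* in KO ECs were these sexes, with KO-105 and KO-108 male and KO-131 and KO-133 female. The difference between genotypes in *Hes1* was 0.15 in males and -0.61 in females. The test of that difference between the sexes gave 0.75 (SE 0.16) with an unadjusted p of 0.000976 and an adjusted p of 0.0855 in limma, so it did not pass. None of the 10 members passed this test, which called 8 of 13931 genes, and *Hes1* was the only member with an unadjusted p under 0.05, while *Jag1* also reached 0.0428 (adjusted p = 0.307) in limma with the samples centred on their medians. *Dll4* was lower by nearly the same amount in both sexes (-0.69 in males, -0.73 in females, a gap of 0.04 with SE 0.13), as was *Dll1* (-0.52 and -0.53, gap 0.015, SE 0.20). *Jag1* differed by -1.15 in males and -0.62 in females, a gap of -0.52 (SE 0.24, adjusted p = 0.374 in limma). In FBs the sexes were uneven between genotypes. The same Y-linked genes read WT-260, WT-277 and KO-240 as male and WT-283, KO-241 and KO-242 as female. In CMs, WT-CM6 had a Y-linked mean of -0.007 log2 CPM, between WT-CM2 (3.35) and WT-CM1 (-3.97), which leaves its sex unclear.

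The mean of 8 macrophage markers in ECs moved with the pairs of *Hes1*. It was 3.79 and 4.37 log2 CPM in KO-105 and KO-108, 1.98 and 2.03 in KO-131 and KO-133, and 3.68 to 4.55 in WT. Immediate early genes, which respond within minutes to stimulation or to cell isolation, also differed by genotype, with 7 of 8 called lower and sample means of 10.54 to 10.76 log2 CPM in WT and 9.31 to 9.89 in KO ECs. Mitochondrially encoded genes took 12.7% and 20.4% of the CPM in KO-105 and KO-108, 8.03% and 8.18% in KO-131 and KO-133 and 5.25% to 8.59% in WT ECs. The part of these measures in the values of the members was not tested. Of 12 endothelial markers 0 were called in ECs, with a median difference of 0.06, and of 10 pericyte and smooth muscle markers 0 were called. Without the fold threshold, the endothelial *Kdr* was lower (-0.48, SE 0.10, adjusted p = 0.00863 in limma) and *Esam* higher (0.22, SE 0.062, adjusted p = 0.0318), both with separate groups, and 1 pericyte and smooth muscle marker was lower.

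**Figure D2:**
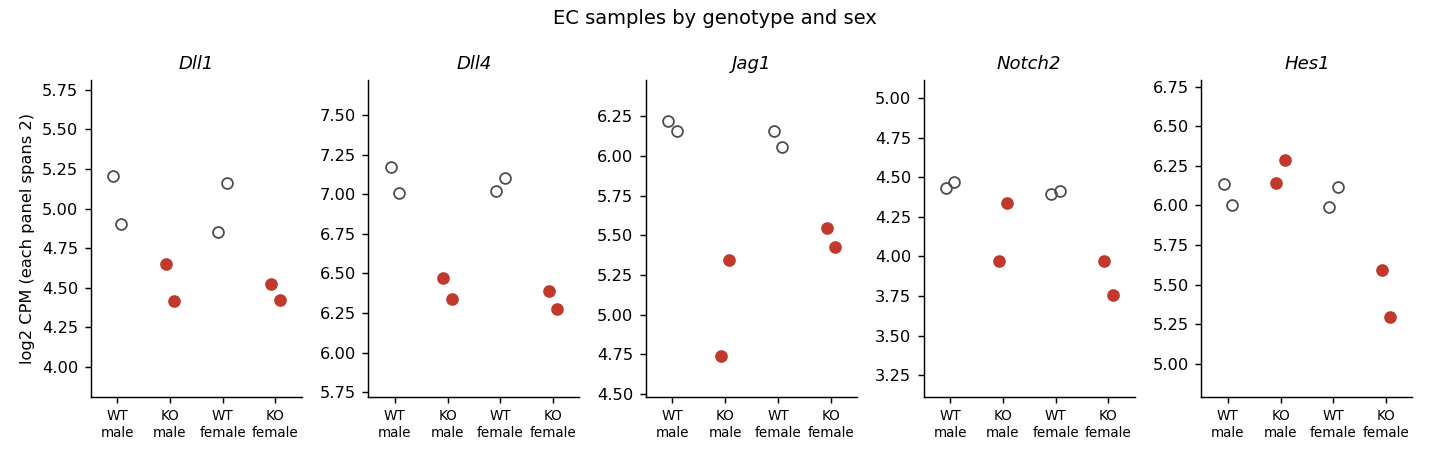
Levels in log2 CPM (vertical axis, each panel spanning 2 units) of *Dll1*, *Dll4*, *Jag1*, *Notch2* and *Hes1* in the 8 EC samples, by genotype and sex, with 1 point per sample. The ligands are lower in KO samples of both sexes, and *Hes1* is lower in the 2 female KO samples (5.59 and 5.30) than in the 2 male ones (6.14 and 6.29).

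In FBs, 0 of 10 members were called at the adjusted p in limma, where the same rule called 0.00737% of all genes higher and 0% lower. With an unadjusted p under 0.05 and the same fold threshold, 8 members were higher and 1, *Notch2*, was lower in KO samples, against 7.03% and 4.39% of all genes, and the same 9 had groups that did not overlap, against 12.2% and 9.09%. The median difference was 1.32 over the members and 0.01 over all genes. All 12 endothelial markers had an unadjusted p under 0.05 in the same direction, with a median difference of 3.57 and an adjusted p above 0.05. The cardiomyocyte list was at 5.45, 0.57 and 1.89 log2 CPM in WT-260, WT-277 and WT-283 and at 4.11 to 4.80 in KO FBs. The pericyte and smooth muscle list was at 4.47, 3.34 and 2.74 in these WT samples and at 4.66 to 5.10 in KO FBs. The part of these marker lists, and of the mitochondrial share given above, in the values of the members was not tested. In bulk samples, a change in the number of cells of a type cannot be told apart from a change in RNA per cell.

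The Delta-like ligands rested on an estimated 0 to 50 reads in 2 of the 3 WT FB samples. *Dll4* measured 2.71, -5.19 and -0.31 log2 CPM in WT-260, WT-277 and WT-283, and the value of WT-277 is the lowest of the table, which stands for 0 reads and allows a level of up to 0.0503 CPM (3 reads, counting error only). The samples KO-240, KO-241 and KO-242 were at 4.73, 4.41 and 3.81, so that the difference of 5.25 (SE 1.87, adjusted p = 0.275 in limma) depends on the value given to 0 reads. *Dll1* measured 2.57, -1.28 and -0.13 log2 CPM in WT, from an estimated 89, 23 and 50 reads, and 3.27, 3.22 and 3.11 in KO samples. *Jag2* was at 3.07, -0.63 and 1.06 in WT and 5.46, 4.98 and 4.61 in KO samples. In all of these ligands the WT samples ranked as their endothelial markers did, with WT-260 first, WT-283 next and WT-277 last. *Jag1* did not follow this order and overlapped between genotypes, at 4.11, 4.06 and 3.73 log2 CPM in WT and 4.35, 4.0 and 3.97 in KO samples.

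The receptors of FBs fell into *Notch1*, *Notch3* and *Notch4* on one side and *Notch2* on the other. *Notch4* measured 4.64, 4.06 and 4.26 log2 CPM in WT and 6.39, 6.05 and 5.55 in KO samples, a difference of 1.67 (SE 0.26, adjusted p = 0.138 in limma). *Notch1* measured 5.74, 5.12 and 5.70 in WT and 7.17, 6.87 and 6.39 in KO samples (1.29, SE 0.27, adjusted p = 0.141). *Notch3* was at 4.92, 4.32 and 4.87 in WT and 5.33, 5.90 and 5.19 in KO samples (adjusted p = 0.238). *Notch2*, a receptor that many mesenchymal cells carry, was at 5.60, 6.57 and 6.66 log2 CPM in WT and 5.60, 5.44 and 5.58 in KO samples. WT-260 thus lay next to the KO samples in *Notch2* and the other 2 WT samples stood about 1 unit above them (difference -0.74, SE 0.29, adjusted p = 0.297).

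Both targets were separate between genotypes in FBs. *Hey1* measured 2.49, 1.94 and 1.87 log2 CPM in WT and 3.62, 3.53 and 3.21 in KO samples (1.36, SE 0.23, adjusted p = 0.138 in limma). *Hes1* measured 4.66, 4.40 and 4.60 in WT and 5.42, 5.36 and 4.99 in KO samples (0.70, SE 0.17, adjusted p = 0.170). One library decided these calls. WT-260 was the WT FB library nearest to the KO samples in its endothelial mean. That mean was 5.33 log2 CPM in WT-260, 1.14 in WT-277, 2.81 in WT-283 and 6.02 to 6.60 in KO samples. Leaving WT-260 out thus also widened the gap in endothelial markers, whose part in these calls was not tested. Without WT-260, 6 members were called higher, against 6.10% of all genes, and *Notch2* was called lower, against 3.30%. The differences were then 7.07 for *Dll4*, 4.80 for *Jag2*, 3.91 for *Dll1*, 1.83 for *Notch4*, 1.55 for *Hey1*, 1.40 for *Notch1* and -1.08 for *Notch2*, and leaving out any other FB sample called none.

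In CMs, 9 of 10 members were higher in the libraries labeled *Gadlor*-KO, where 21.2% of all genes were called higher and 19.6% lower. The exception was *Notch3*. With mitochondrially encoded genes left out of the CPM the same 9 members were called, while 4387 genes were higher and 1494 lower in place of 2771 and 2556. The groups of the 9 did not overlap, as in 31.1% of all genes in this direction and 28.4% in the other, and the median difference was 2.17 over the members and 0.15 over all genes. In the same libraries 12 of 12 endothelial, 8 of 8 macrophage and 9 of 10 fibroblast markers were called higher (median differences 2.45, 4.35 and 4.37), and 10 of 10 cardiomyocyte markers lower (-4.34). All 5 epicardial markers were higher by unadjusted p, 2 of them called (median difference 3.83). The part of these cells, and of the mitochondrial share, in the values of the members was not tested here beyond the levels relative to markers below.

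*Dll4* measured 2.20, 3.14 and 2.92 log2 CPM in WT-CM1, WT-CM2 and WT-CM6 and 3.61, 5.32 and 4.69 in KO-CM1, KO-CM2 and KO-CM3 (1.79, SE 0.50, adjusted p = 0.0287 in limma). *Jag1* was at 1.16, 1.55 and -0.97 in WT, the last from an estimated 9 reads, and at 2.85, 3.48 and 3.51 in KO libraries (2.70, SE 0.69, adjusted p = 0.0216). *Dll1* was at 0.24, 0.68 and 0.01 in WT, from 19 to 29 reads, and at 1.88, 3.29 and 2.84 in KO libraries (2.36, SE 0.48, adjusted p = 0.0094). *Jag2* measured 2.97, 3.35 and 3.68 in WT and 4.44, 5.83 and 5.64 in KO libraries (1.97, SE 0.44, adjusted p = 0.0126). In each ligand KO-CM1 was the lowest KO library and still above all WT libraries.

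KO-CM1 was also the lowest KO library in the receptors, except in *Notch2*. *Notch1* measured 3.45, 3.99 and 3.91 log2 CPM in WT and 5.46, 6.87 and 6.65 in KO libraries (2.54, SE 0.43, adjusted p = 0.00681 in limma). *Notch4* measured 3.40, 4.24 and 4.43 in WT and 5.46, 7.11 and 6.76 in KO libraries (2.42, SE 0.52, adjusted p = 0.0119). *Notch2* measured 3.31, 3.24 and 2.16 in WT and 5.12, 4.25 and 4.33 in KO libraries (1.67, SE 0.43, adjusted p = 0.0199), and here KO-CM1 was the highest. *Notch3* was at 3.75, 4.27 and 4.29 in WT and at 3.78, 6.69 and 6.33 in KO libraries, so that KO-CM1 lay within WT and the others above it. The pericyte and smooth muscle list, whose cells express *Notch3*, showed the same split, at 4.35 to 4.94 log2 CPM in WT and 4.09, 6.07 and 6.19 in KO-CM1, KO-CM2 and KO-CM3. The difference in *Notch3* was 1.5 (SE 0.76, adjusted p = 0.159), and without KO-CM1 it was 2.41 and called.

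The targets were higher as well. *Hey1* measured 1.0, 1.32 and 1.0 log2 CPM in WT and 2.79, 4.37 and 4.19 in KO libraries (2.68, SE 0.48, adjusted p = 0.00732 in limma). *Hes1* measured 2.84, 3.31 and 2.91 in WT and 3.73, 4.73 and 3.94 in KO libraries (1.11, SE 0.35, adjusted p = 0.0417). *Hes1* was the member closest to the threshold and was lost without WT-CM1, WT-CM2, KO-CM2 or KO-CM3, with the samples centred on their medians (0.96, adjusted p = 0.102) or without the mean-variance trend (adjusted p = 0.0534). Without KO-CM2, 5 members were called (*Notch1*, *Notch2*, *Notch4*, *Dll1* and *Hey1*), against 12.4% of all genes. Without KO-CM3, *Dll4* and *Jag1* were lost besides *Hes1*, and without WT-CM1 *Dll4* was lost besides *Hes1*. *Notch2* was lost without KO-CM1.

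**Figure D3:**
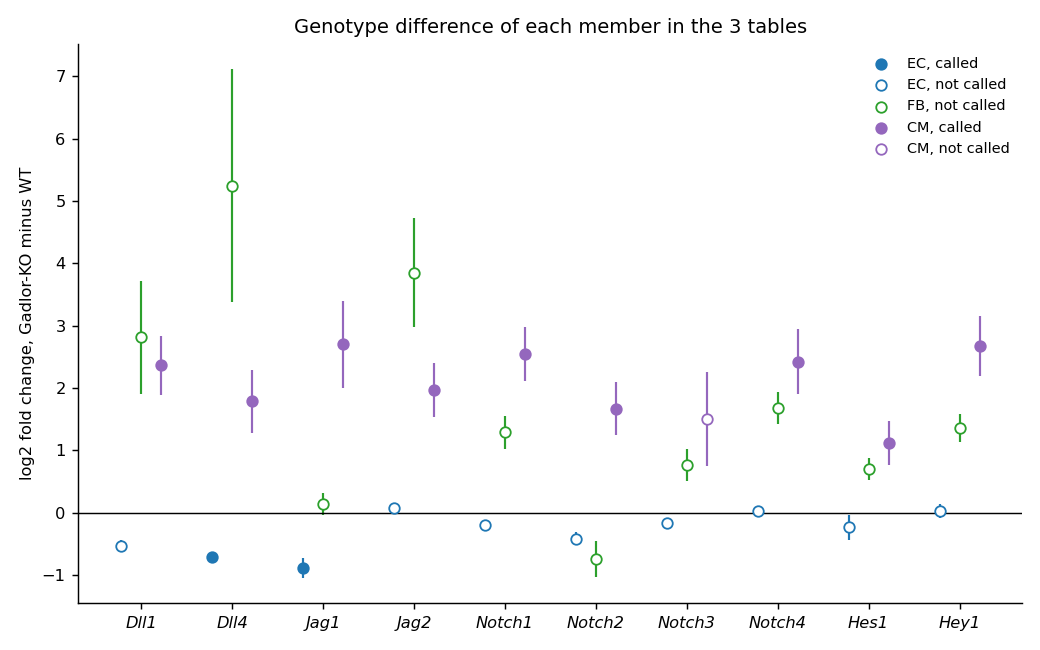
Difference between genotypes (log2 fold change, *Gadlor*-KO minus WT, vertical axis) of each member in ECs, FBs and CMs. Points are limma estimates, bars reach 1 SE to each side and filled points passed both the adjusted p and the fold threshold. Filled points are *Dll4* and *Jag1* below 0 in ECs and 9 members above 0 in CMs.

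Levels were also set relative to the endothelial markers of the same sample, as a description without a test. This was the difference between the log2 CPM of a member and the mean of the 12 markers. *Dll4* was lower against these markers in KO than in WT ECs, with means of -2.20 and -1.46, and also in KO than in WT CMs, with -1.92 and -1.13, in both without overlap. It was higher against them in KO FBs (-2.04, WT -4.02), where the WT mean includes the sample with 0 reads. Against the pericyte and smooth muscle list, *Dll4* was also lower in KO ECs (-0.84, WT -0.06, no overlap). In CMs it was then higher in KO (-0.91, WT -1.86), with overlapping groups, so its direction there depended on the list. *Jag1* was lower against the endothelial markers in KO ECs (-3.30, WT -2.38), while its groups overlapped in CMs (-3.18 in KO, -3.30 in WT).

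*Notch1* and *Notch4* kept close to the endothelial markers in every EC and CM group. *Notch4* minus the markers was 0.01 in both EC genotypes, 0.14 in WT CMs and -0.01 in KO CMs. *Notch1* was at 0.38 and 0.14 in WT and KO ECs and at -0.10 and -0.13 in WT and KO CMs. The CM groups of *Hey1* (-2.78 in WT, -2.67 in KO), *Dll1* (-3.57 and -3.79) and *Jag2* (-0.55 and -1.16) overlapped too. *Hes1* and *Notch3* were lower against the markers in KO CMs, with -2.32 and -0.86 against WT means of -0.86 and 0.22 and no overlap. The *Notch3* values were -1.96 in KO-CM1, -0.28 in KO-CM2 and -0.33 in KO-CM3, with WT-CM2 at -0.20. Against the pericyte and smooth muscle list, both genes overlapped between genotypes in CMs. *Notch3* was there at 0.15 in KO and -0.51 in WT, and *Hes1* at -1.31 and -1.59. In FBs, *Notch2* followed the fibroblast markers instead, at -3.03 in WT and -3.15 in KO samples with overlapping groups.

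**Figure D4:**
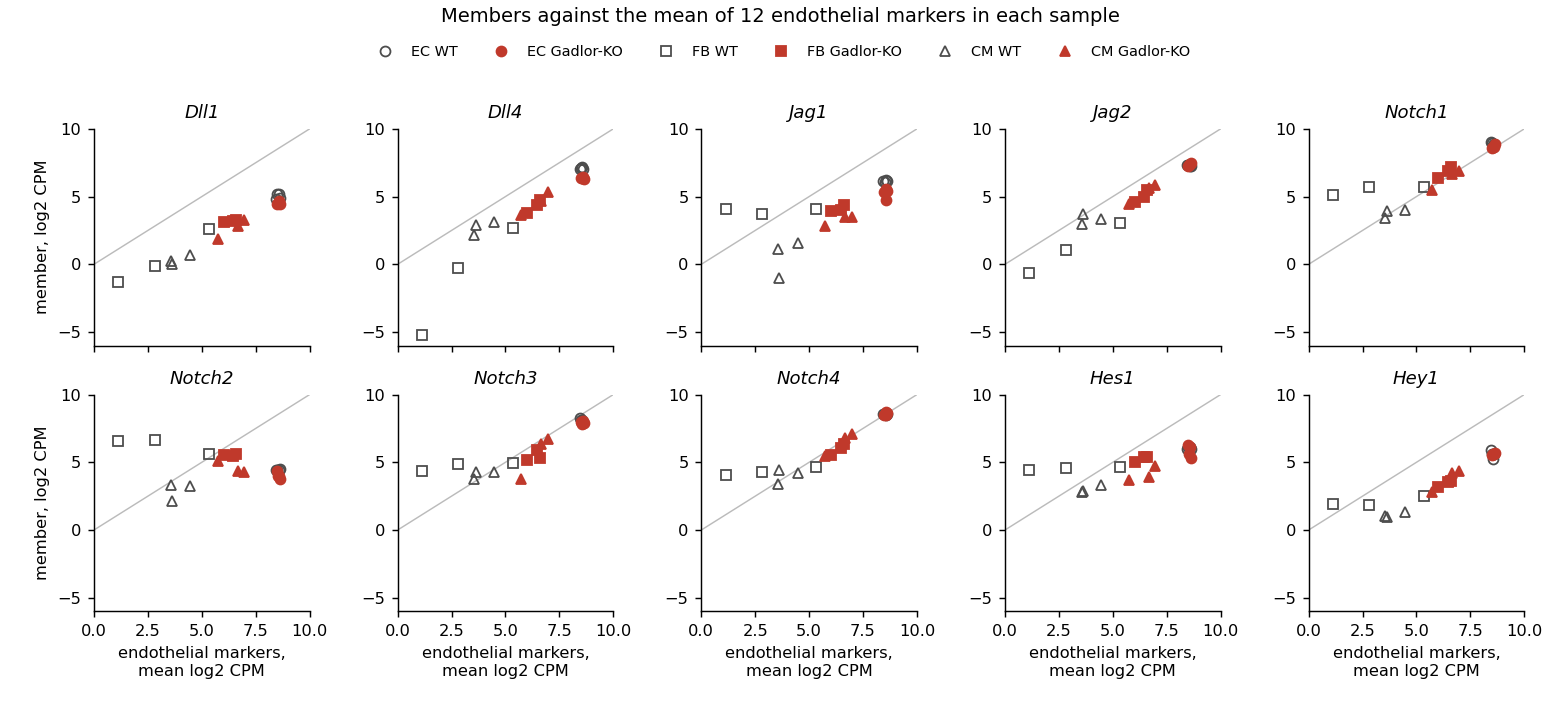
Level of each member (vertical axis, log2 CPM) against the mean of 12 endothelial markers in the same sample (horizontal axis, log2 CPM), 1 panel per gene. Each point is 1 of 20 samples, with EC, FB and CM samples as circles, squares and triangles, KO filled, and the line marks equal values. *Notch4* lies near the line except in the 2 WT FB samples with the fewest endothelial markers, and *Notch2* is higher in FB samples with few endothelial markers.

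The order of the members within a cell type was read per length, in log2 CPM per kb of transcript. In WT ECs *Notch4* (5.82), *Notch1* (5.66) and *Hes1* (5.51) led, each overlapping the next, followed by *Dll4* (5.17), *Notch3* (5.11) and *Jag2* (4.95), which overlapped likewise. Then came *Hey1* (4.31), *Jag1* (3.66), *Dll1* (3.19) and *Notch2* (1.04), each separate from its neighbors. In KO ECs *Dll4* (4.46) came after *Jag2* (5.02) and *Notch3* (4.94) and overlapped *Hey1* (4.33), and *Jag1* (2.78) overlapped *Dll1* (2.66). *Dll4* was the first of the ligands per kb in WT ECs and stood behind *Jag2* in KO ECs, with ranges that did not overlap between these genes in either genotype.

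In WT FBs *Hes1* led (4.0 log2 CPM per kb), before *Notch2* (2.89) and *Notch1* (2.28), whose ranges overlapped. *Dll4* was last at -2.83, and its range overlapped that of *Dll1* (-1.45). In WT CMs *Hes1* led again (2.47), before *Notch4* (1.30) and *Notch3* (1.10), which overlapped, and *Jag1* was last (-1.91), overlapping *Dll1* (-1.53).

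Across cell types, levels can be set side by side only loosely, since the tables were normalized separately, and no test was made. The EC groups had the highest mean of all groups in 9 members. The exception was *Notch2*, which was highest in WT FBs (6.28 ± 0.59 log2 CPM, SD, n = 3), next in KO FBs (5.54 ± 0.083, n = 3), and then in KO CMs (4.57 ± 0.48, n = 3) and WT ECs (4.43 ± 0.032, n = 4), whose ranges overlapped. KO ECs (4.01) and WT CMs (2.90) followed. *Hes1* had the smallest range of group means, from 6.06 in WT ECs to 3.02 in WT CMs, and the WT EC, KO EC and KO FB groups overlapped in turn.

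Of 53 further genes of the pathway, 43 were measured in ECs, 45 in FBs and 41 in CMs. They comprise modifiers of the receptors, the enzymes that cut them, nuclear partners and other targets. In ECs 2 were called lower and 0 higher, where 5.31% and 2.08% of all genes were, with a median difference of -0.04. *Neurl3*, a ubiquitin ligase related to the Neuralized proteins that act on Notch ligands, was at 4.84 ± 0.24 in WT and 3.43 ± 0.28 log2 CPM in KO ECs (SD, n = 4 each), a difference of -1.41 (SE 0.15, adjusted p = 0.00035 in limma). *Hdac1*, a histone deacetylase that takes part in repression by RBPJ, differed by -1.0 (SE 0.27, adjusted p = 0.0306). Without the fold threshold 5 were higher and 6 lower in ECs, where 1397 and 1569 of all 13931 genes were. From the higher ones 2 genes are named, picked after their values were seen. Of the lower ones only *Neurl3* and *Hdac1* are named, so these genes do not describe the list. *Nrarp*, a target that feeds back on the receptor, differed by 0.43 (SE 0.088, adjusted p = 0.00799), and *Lfng*, which adds sugars to the receptor and so favors Delta-like ligands, by 0.47 (SE 0.10, adjusted p = 0.0106).

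In FBs 0 of the 45 were called in limma, while 4 were higher and 2 lower by unadjusted p (under 0.05, same fold threshold), against 7.03% and 4.39% of all genes. In CMs 16 of 41 were higher and 1 lower, where 21.2% and 19.6% of all genes were, with a median difference of 1.04 against 0.15 over all genes. The smallest adjusted p values belonged to *Lfng* (3.31), *Dtx4* (3.56), *Numbl* (3.23), *Dtx1* (3.52), *Neurl3* (2.74) and *Mfng* (2.36), all higher in KO libraries on the log2 scale. *Dtx1* and *Dtx4* belong to the Deltex ubiquitin ligases, *Numbl* to the Numb inhibitors and *Lfng* and *Mfng* to the Fringe glycosyltransferases. *Aph1a*, a subunit of the γ-secretase that cuts the receptor, was the one gene called lower (-2.12, SE 0.40, adjusted p = 0.00826 in limma), and is named for that after its value was seen.

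Genes with the most similar pattern were sought over the 8 EC samples among the 7208 genes whose mean reached 10 CPM, for one ligand, one receptor and one target. The samples share their genotypes and sexes, so the correlations are a description. For *Dll4* they were *Timeless* (Pearson r = 0.996), *Mx2* (0.995) and *Daxx* (0.993). For *Notch4* they were *Ttc7b* (0.939), *Calhm2* (0.933) and *Shank3* (0.925). For *Hes1* they were *C1qc* (0.952), *C1qa* (0.951) and *Tgfbi* (0.947), of which *C1qc* and *C1qa* encode chains of complement C1q and are characteristic of macrophages. Spearman's rho over the same samples lay between 0.93 and 0.98 for *Dll4* and between 0.76 and 0.81 for *Hes1*.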

How the data were processed

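RNA of ECs, FBs and CMs was sequenced by the authors as stranded single-end reads of 50 bases. Per the methods and the submitters' notes, reads were cleaned (FastqCleaner), mapped with Bowtie2 to mm10 and annotated with biomaRt. For these steps of the authors, the methods name edgeR and the notes DESeq2. Versions, the counting tool and the filter on low transcripts are not given in the sources used here. The deposited values are log2 CPM per transcript and sample. The deposited tables also hold the authors' log2 fold changes, likelihood ratio scores and p-values with FDR, which were not used.

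One transcript, that with the highest mean, stood for a gene. Transcripts without a gene name (0.433%, 0.411% and 0.406% in EC, FB and CM) were left out. Genotypes were compared within each table with limma 3.58.1 (mean-variance trend, robust empirical Bayes, statmod 1.5.0, R 4.3.3), p-values were adjusted by Benjamini-Hochberg over all genes, and fold changes were taken on the deposited scale, on which changes near the lowest value are understated. Library sizes and reads of low genes were estimated from the steps between low values (100% of them whole to 0.1 read, with a step estimated from the same values), and no count test was run. The scripts were tested on simulated data. Software comprised python 3.11.15 with numpy 2.4.6, pandas 2.3.3, scipy 1.17.1 and, for plots, matplotlib 3.10.9.

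The 10 members, the other gene lists and the tests were chosen with earlier results of these data known. All members were named, of the other pathway genes the called ones with the smallest adjusted p (at most 6 per table), and 3 genes by likeness to each of *Dll4*, *Notch4* and *Hes1*. *Nrarp* and *Lfng* in ECs, *Aph1a* in CMs and the markers *Kdr* and *Esam* lie outside this rule and were named after their values were seen. Alternatives were pseudocounts of 1 and 5 CPM, a filter, summed transcripts, other scalings, other thresholds, sex or endothelial markers as covariate, a replicate block and single samples left out.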

Additional observations from a re-analysis of the deposited data

Results flagged for a closer look

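The differences between genotypes went in opposite directions in every sample of 2 tables for some members. These contrasts between tables were not tested, because the tables were normalized separately. The effect in FBs minus that in ECs was 3.34 on the log2 scale for *Dll1* and 5.95 for *Dll4*. The size for *Dll4* depends on the value given to 0 reads in WT-277. The CM libraries are named by label only, and the markers of KO-CM1 and KO-CM2 went against that label. The effect in CMs minus that in ECs was 2.89 for *Dll1*, 2.49 for *Dll4*, 3.59 for *Jag1* and 2.09 for *Notch2*. The effect in CMs minus that in FBs was 2.41 for *Notch2*. Its FB groups were barely separate, with WT-260 at 5.604 and KO-240 at 5.600 log2 CPM. Beside these values, the median difference of the 12 endothelial markers was 0.06 in ECs, 3.57 in FBs and 2.45 in CMs. A sample far from the rest of its group was looked for in the 20 EC groups of 4 (10 members in 2 genotypes), and 0 were found, where chance gives about 1 in 20.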

How the results depend on the processing

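The 2 members lower in ECs became 4 without a fold threshold and 0 with a fold above 2, and leaving out single samples gave 2 to 3. Leaving out single samples gave 0 to 6 members higher and 0 to 1 lower in FBs (6 and 1 without WT-260) and 5 to 9 higher in CMs (5 without KO-CM2). With the endothelial marker mean as covariate, 0 members were higher in CMs, as were 0 of all 13040 genes. This covariate had 88.2% of its variance between genotypes in CMs and 63.7% in FBs, so little is left to estimate a genotype effect. Under it the difference changed sign for *Dll1* (-0.18), *Dll4* (-0.70) and *Notch2* (0.050) in FBs and for *Dll1* (-0.034), *Dll4* (-1.01), *Hes1* (-0.46), *Notch3* (-2.69) and *Notch4* (-0.14) in CMs. Single samples turned *Hey1* (-0.078 to 0.13) and *Notch4* (-0.0047 to 0.074) in ECs, neither of them called. Of 180 values of single members in ECs, 172 kept their direction and side of the threshold, as did 160 of 170 in FBs and 146 of 170 in CMs. Leaving mitochondrially encoded genes out of the CPM moved the median of all genes from 0.15 to 0.89 in CMs, with 4387 genes higher and 1494 lower in place of 2771 and 2556, and from 0.01 to 0.15 in FBs. CM samples share the replicate numbers 1 and 2, with correlations of 0.051 and 0.077 between same-numbered samples. Other combinations ranged from -0.22 to 0.15. With so few same-numbered samples, this cannot settle whether the numbers pair them. A fit with the replicate block called 9 members higher. Counting error weighs most on *Dll1* and *Dll4* in WT-277 and WT-283 (0 to 50 reads, in the deepest FB libraries) and on *Dll1* and *Jag1* in WT CMs (9 to 54 reads).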
